A study of Drosophila melanogaster with 16 samples.

Results

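Mitochondrial ribosomal proteins are encoded in the nucleus, made in the cytosol and imported into mitochondria. There they join the ribosomal RNAs of the mitochondrial genome to form the ribosome that translates the respiratory chain subunits still encoded by that genome. The genes described here were those whose probe set leads to a symbol beginning mRpL (large subunit) or mRpS (small subunit). There were 61 of them, 41 of the large and 20 of the small subunit, among 11308 genes with a symbol on the array. Each was read by 1 probe set. The gene table used for names lists 73 such symbols; the other 12 had no probe set of their own here, and 4 probe sets that lead to 2 symbols each were kept apart.

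RNA came from whole Drosophila melanogaster embryos at stages 10 to 17 and was read on 16 single-colour arrays in 4 groups. The hsp-otd line 5A (4 arrays) carries the fly head gene otd, now named oc, behind a heat shock promoter, and the hsp-Otx2 line (4 arrays) carries human Otx2, its relative, in the same manner. Both lines were heat-shocked, as was Oregon-R wild type (3 arrays): eggs laid over 12 h were aged for 4 h, heated to 37 °C for 25 min and left to recover at 25 °C for 25 min. A further 5 arrays hold Oregon-R without heat shock, for which no laying or ageing time is given. Each transgene was represented by 1 line, driven in every cell that answers heat, so effects of the transgene and of the line's background cannot be told apart. Heat shock and any difference in collection or age between untreated and heat-shocked embryos cannot be told apart either.

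The mitochondrial ribosome has a small subunit that binds the messenger and decodes it and a large subunit that joins amino acids. Part of its proteins have bacterial counterparts, and the rest are particular to mitochondria. The genes are expressed in all tissues, and demand is high where respiration is high, as in muscle.

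Mean deposited intensity ran from 460.2 to 1016.4 over the arrays, a 2.21-fold range, and the arrays of heat-shocked wild type lay at its low end, from 460.2 to 650.2. Intensities were therefore quantile-normalized, set to a floor of 20, and compared on the log2 scale. As a check of the hsp-otd label, the normalized intensity of oc was 6213 to 6448 in the hsp-otd arrays, 97 to 127 in the hsp-Otx2 arrays, -16 to 235 in heat-shocked wild type and -89 to 21 in untreated wild type. The hsp-Otx2 range lay within that of heat-shocked wild type, so oc does not check the other labels. Nothing in the labels tells whether arrays of 1 group came from separate egg collections, so p-values measure only the spread between these arrays, and their number limits the precision of every value. Of the 61 members, 58 were above the floor on all arrays; the exceptions, mRpL4, mRpL20 and mRpL43, belong to the large subunit. Within groups the members' median SD (log2) was 0.09 in hsp-otd, 0.10 in hsp-Otx2, 0.20 in heat-shocked and 0.18 in untreated wild type, beside 0.21, 0.23, 0.38 and 0.41 over all probe sets tested.

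As a family, the messages of the mitochondrial ribosome lay lower in all heat-shocked groups than in untreated wild type. After quantile normalization they lay lowest in hsp-Otx2 embryos for the large subunit. On each array, the median deviation of the 41 large-subunit members from their own means (log2) was -0.08, -0.08, -0.04 and -0.05 in hsp-otd, -0.26, -0.27, -0.25 and -0.23 in hsp-Otx2, 0.13, 0.00 and 0.04 in heat-shocked wild type and 0.35, 0.37, 0.14, 0.31 and 0.26 in untreated wild type. The 4 groups did not overlap in this measure after quantile normalization. The place of the lines below heat-shocked wild type changed with the scaling. Relative to all probe sets, the large-subunit median over heat-shocked wild type was -0.17 in hsp-otd and -0.11 in hsp-Otx2. It was -0.06 and -0.02 with median scaling, and -0.02 and 0.05 without normalization. For the 20 small-subunit members the same medians spanned -0.18 to -0.02 in hsp-otd, -0.19 to -0.07 in hsp-Otx2, -0.05 to 0.04 in heat-shocked wild type and 0.14 to 0.27 in untreated wild type, so the lines overlapped each other but untreated wild type stood above all others. Over all probe sets tested the array medians stayed between -0.09 and 0.04. These are whole-embryo levels: fewer cells of a type that expresses a gene and less RNA per cell cannot be told apart.

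**Figure D1:**
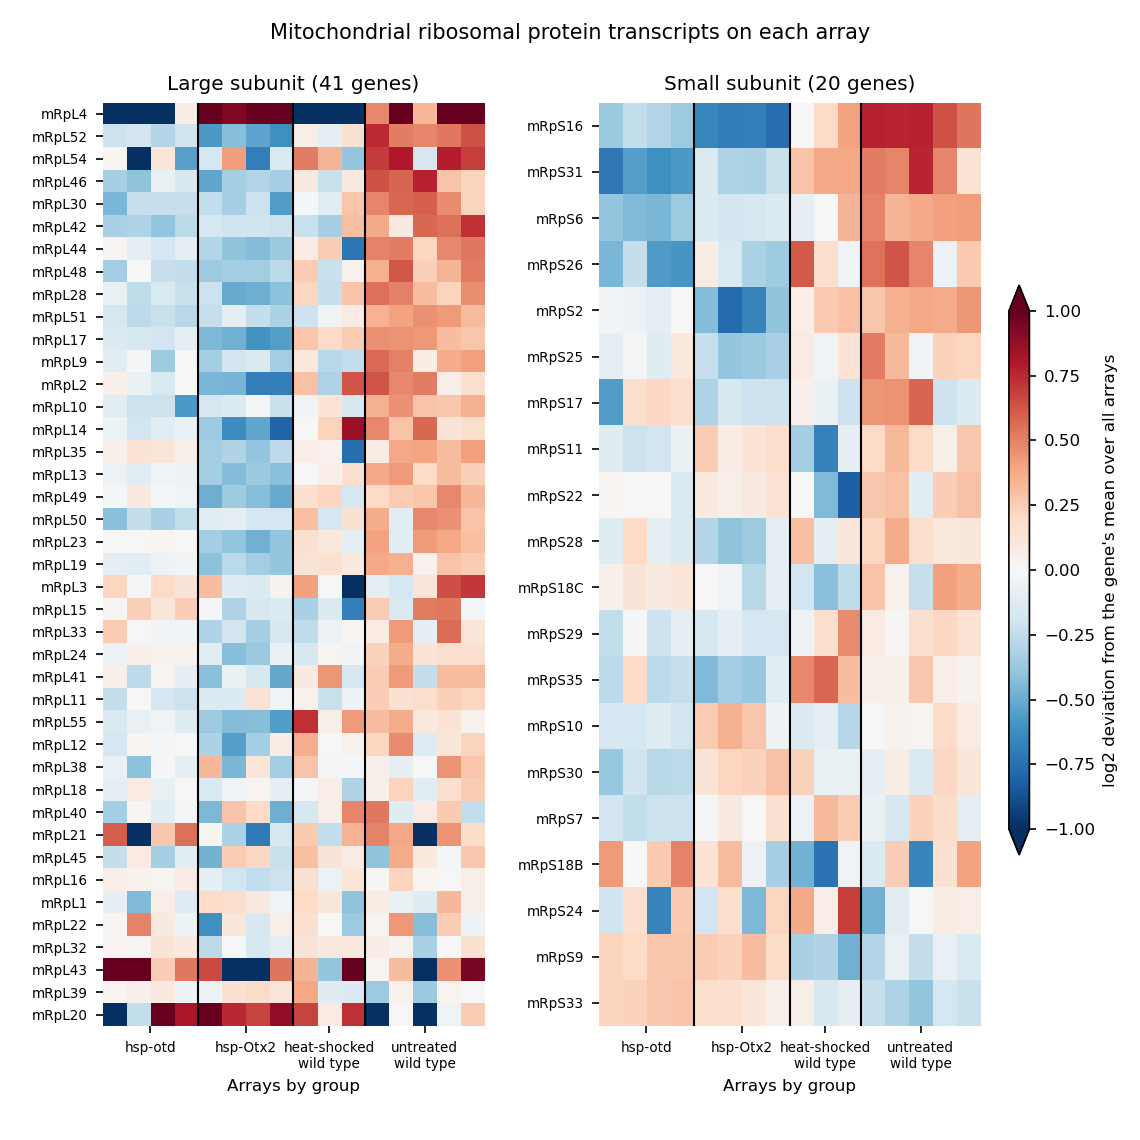
Each row is 1 member and each column 1 array, ordered from left as hsp-otd, hsp-Otx2, heat-shocked wild type and untreated wild type; colour is the log2 deviation from the gene's mean over all arrays, limited to the range -1 to 1. Untreated wild type is the warmest block in most rows, hsp-Otx2 is the coolest block for much of the large subunit, and mRpS9 and mRpS33 run the other way.

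Against untreated wild type, 2 members were higher and 30 were lower in hsp-otd embryos (limma, adjusted p below 0.05 over 12301 probe sets), where 15.7% of all probe sets tested were higher and 13.9% lower. Of the large subunit 20 of 41 were lower and 0 higher, with a median log2 fold change of -0.28. Of the small subunit 10 of 20 were lower and 2 higher, with a median of -0.24. The median of all probe sets was -0.01.

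In hsp-Otx2 embryos 3 members were higher and 35 lower than in untreated wild type, beside 18.5% higher and 21.4% lower of all probe sets tested. The large subunit had 26 of 41 lower and 1 higher, with a median log2 fold change of -0.50, and the small subunit 9 of 20 lower and 2 higher, with a median of -0.27. The median of all probe sets was -0.12 in this comparison.

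Heat-shocked wild type had 1 member higher and 19 lower than untreated wild type, beside 10.3% higher and 12.2% lower of all probe sets. The large subunit had 14 of 41 lower and 0 higher (median -0.23), the small subunit 5 of 20 lower and 1 higher (median -0.17), and all probe sets had a median of 0.01. The number lower was 11 without replicate 2 of heat-shocked wild type and 7 when only these 2 groups entered the fit. These 3 comparisons share the 5 untreated arrays, so they are not independent of each other. Relative to the median of all probe sets, both subunits stayed lower in all 3 comparisons under median scaling and without normalization, by 0.07 to 0.41 on the log2 scale, whereas the calls did not all remain: without normalization 2 members were higher and 1 lower in hsp-otd, and 0 higher and 7 lower in hsp-Otx2, and with median scaling 6 were higher and 27 lower in hsp-Otx2.

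**Figure D2:**
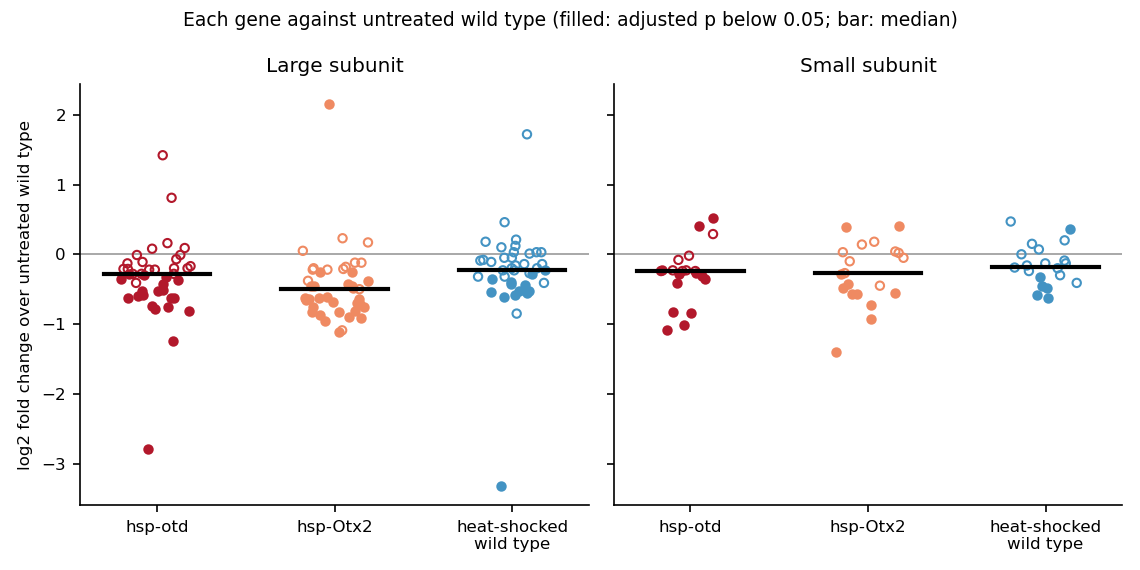
Each point is the log2 fold change of 1 member over untreated wild type, with groups on the horizontal axis, large subunit at left and small subunit at right; filled points passed at an adjusted p below 0.05 and the bar is the median. The medians are -0.28, -0.50 and -0.23 for the large subunit and -0.24, -0.27 and -0.17 for the small subunit.

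Markers of late embryos and of heat shock moved with the same groups. The summed intensity of 11 late cuticle genes, which mark the end of embryogenesis, was 9508 to 10432 in hsp-otd, 6946 to 8487 in hsp-Otx2, 5627 to 8161 in heat-shocked and 48330 to 49540 in untreated wild type; all 11 were lower in every heat-shocked group than in untreated wild type, and 6 were at the floor on all heat-shocked wild-type arrays. The sum of 7 heat-inducible genes was 89031 to 104662 in hsp-otd, 93240 to 115348 in hsp-Otx2, 107238 to 108661 in heat-shocked and 3309 to 3677 in untreated wild type, and all 7 were higher in every heat-shocked group than in untreated wild type. The part of these markers in the values of the mitochondrial ribosome was not tested.

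The small-subunit gene mRpS16, whose product is the homologue of a bacterial protein of the subunit body, differed between all 4 groups. Its normalized intensity was 1393, 1517, 1469 and 1400 on the hsp-otd arrays, 1148, 1109, 1114 and 1063 on the hsp-Otx2 arrays, 1810, 2072 and 2382 in heat-shocked wild type and 3074, 3064, 3071, 2798 and 2618 in untreated wild type. No 2 groups overlapped, with untreated wild type highest and hsp-Otx2 lowest. The log2 fold change over untreated wild type was -1.02 in hsp-otd (SE 0.08, adjusted p = 5.93e-08), -1.40 in hsp-Otx2 (SE 0.08, adjusted p = 7.01e-10) and -0.49 in heat-shocked wild type (SE 0.09, adjusted p = 0.000543).

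In the large subunit mRpL52, a protein particular to mitochondria, showed the same order of groups. It read 952, 966, 902 and 962 in hsp-otd, 742, 822, 769 and 722 in hsp-Otx2, 1153, 1041 and 1230 in heat-shocked wild type and 1852, 1579, 1552, 1597 and 1721 in untreated wild type, again without overlap between any groups. Its log2 fold change over untreated wild type was -0.81 in hsp-otd, -1.12 in hsp-Otx2 and -0.54 in heat-shocked wild type (SE 0.08 to 0.09, largest adjusted p = 0.000215).

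Other large-subunit members that fell in all 3 comparisons included mRpL46, mRpL42, mRpL30 and mRpL44. For mRpL46 the arrays read 583, 555, 694 and 657 in hsp-otd, 510, 583, 597 and 582 in hsp-Otx2, 780, 627 and 778 in heat-shocked wild type and 1141, 1096, 1246, 893 and 853 in untreated wild type. Every untreated array lay above every other array, and the log2 fold change over untreated wild type was -0.74, -0.87 and -0.51 (SE 0.13 to 0.14) in those 3 groups. For mRpL42 it was -0.79 in hsp-otd, -0.66 in hsp-Otx2 and -0.55 in heat-shocked wild type, a call that leaving out replicate 2 of that group ended. For mRpL30 it was -0.76 in hsp-otd, -0.81 in hsp-Otx2 and -0.42 in heat-shocked wild type. mRpL44, which in mammals carries a domain of the ribonuclease III type, gave -0.53, -0.82 and -0.58 in the same groups, and the call in heat-shocked wild type ended when its replicate 3 was omitted, which read 538 where the others read 933 and 1055.

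mRpL2, the homologue of the bacterial protein beside the peptidyl transferase centre, read 1133, 1043, 983 and 1095 in hsp-otd, 797, 790, 679 and 675 in hsp-Otx2, 1340, 884 and 1692 in heat-shocked wild type and 1693, 1524, 1562, 1132 and 1228 in untreated wild type. The hsp-Otx2 arrays lay below all others. Its log2 fold change over untreated wild type was -0.95 in hsp-Otx2 (SE 0.16, adjusted p = 0.000126), and it was not called in hsp-otd (-0.41) or in heat-shocked wild type (-0.16).

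mRpL17, at the exit of the peptide tunnel in bacteria, read 1190, 1167, 1140 and 1233 in hsp-otd, 957, 935, 864 and 892 in hsp-Otx2, 1583, 1493 and 1550 in heat-shocked wild type and 1791, 1781, 1764, 1614 and 1578 in untreated wild type. Both lines lay apart from each other and below both wild-type groups, which overlapped. Over untreated wild type the log2 fold change was -0.53 in hsp-otd (adjusted p = 1.49e-05), -0.90 in hsp-Otx2 (adjusted p = 1.5e-08) and -0.14, not called, in heat-shocked wild type (SE 0.07 to 0.08). For mRpL14, a neighbour of the small subunit in the assembled bacterial ribosome, the log2 fold change over untreated wild type was -0.43 in hsp-otd, -0.91 in hsp-Otx2 and 0.03, not called, in heat-shocked wild type.

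In the small subunit mRpS31, particular to mitochondria, was lowest in hsp-otd. It read 743, 835, 800 and 823 in hsp-otd, 1103, 989, 984 and 1045 in hsp-Otx2, 1490, 1591 and 1594 in heat-shocked wild type and 1751, 1715, 2068, 1713 and 1344 in untreated wild type. The lines were apart from each other and from both wild-type groups, while the wild-type groups overlapped. The log2 fold change over untreated wild type was -1.09 in hsp-otd (adjusted p = 3.55e-07), -0.73 in hsp-Otx2 (adjusted p = 1.55e-05) and -0.13, not called, in heat-shocked wild type (SE 0.10 for each line).

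mRpS6, the homologue of bacterial S6, read 896, 862, 854 and 909 in hsp-otd, 1067, 1025, 1040 and 1068 in hsp-Otx2, 1104, 1172 and 1479 in heat-shocked wild type and 1650, 1479, 1520, 1561 and 1563 in untreated wild type. The hsp-otd arrays were lowest and the hsp-Otx2 arrays next, below both wild-type groups. Its log2 fold change over untreated wild type was -0.82 in hsp-otd, -0.57 in hsp-Otx2 and -0.32 in heat-shocked wild type, and the last was lost without replicate 1 or replicate 2 of that group. mRpS26, particular to mitochondria, had a log2 fold change over untreated wild type of -0.84 in hsp-otd and -0.56 in hsp-Otx2.

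mRpS2, the homologue of bacterial S2, read 1616, 1577, 1544 and 1634 in hsp-otd, 1216, 962, 1036 and 1244 in hsp-Otx2, 1723, 1967 and 2014 in heat-shocked wild type and 1988, 2097, 2151, 2128 and 2225 in untreated wild type. The hsp-Otx2 arrays were lowest and the hsp-otd arrays next, and the wild-type groups overlapped. Its log2 fold change over untreated wild type was -0.41 in hsp-otd (adjusted p = 0.00107) and -0.93 in hsp-Otx2 (adjusted p = 9.65e-08).

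**Figure D3:**
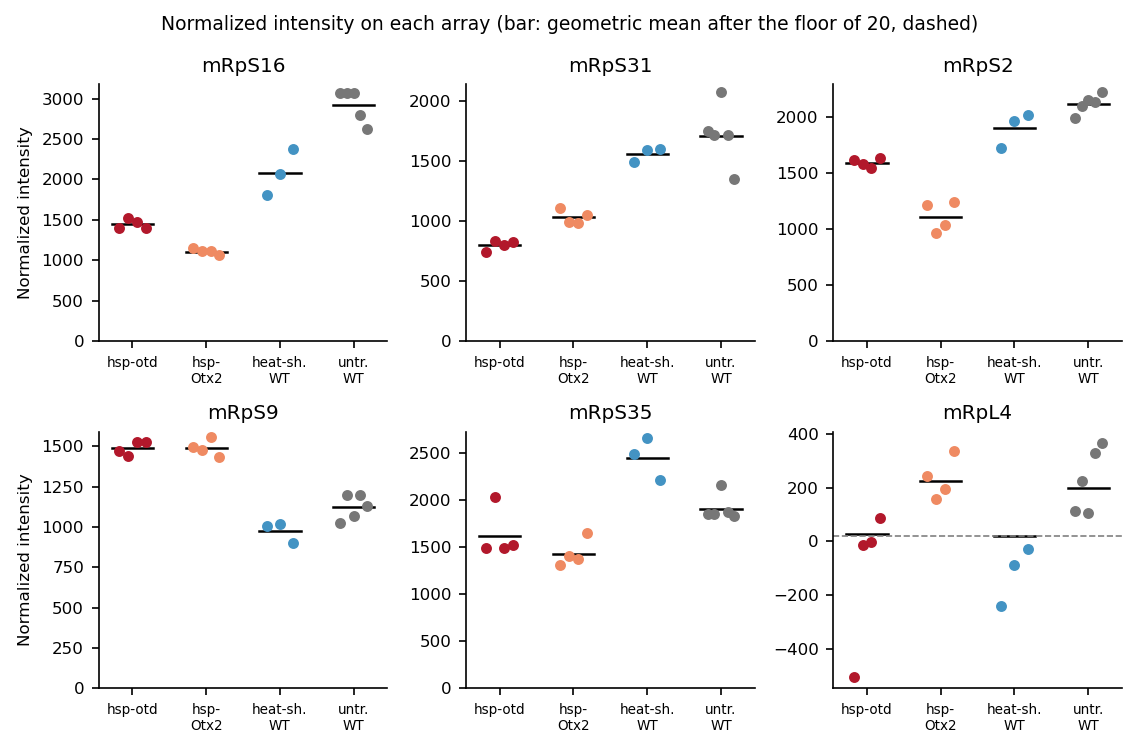
Points are normalized intensities of 6 members on each array, with groups on the horizontal axis; bars are geometric means after the floor of 20, and the dashed line in the mRpL4 panel is that floor. mRpS16, mRpS31 and mRpS2 lie lower in both lines than in both wild-type groups, mRpS9 lies higher, mRpS35 is highest in heat-shocked wild type, and mRpL4 is at or near the floor in hsp-otd and heat-shocked wild type.

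A few members rose. mRpS9, a homologue of the bacterial protein whose tail touches transfer RNA, read 1469, 1442, 1525 and 1529 in hsp-otd, 1498, 1475, 1558 and 1433 in hsp-Otx2, 1005, 1020 and 902 in heat-shocked wild type and 1026, 1199, 1066, 1196 and 1130 in untreated wild type. The 8 arrays of the lines lay above all 8 wild-type arrays. Its log2 fold change was 0.41 in both lines over untreated wild type and 0.61 in both over heat-shocked wild type (SE 0.07 to 0.08, largest adjusted p = 0.000332).

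mRpS33, particular to mitochondria, read 1720, 1728, 1781 and 1795 in hsp-otd, 1664, 1654, 1600 and 1526 in hsp-Otx2, 1532, 1320 and 1383 in heat-shocked wild type and 1255, 1191, 1121, 1307 and 1263 in untreated wild type. The lines lay above untreated wild type, and hsp-Otx2 overlapped heat-shocked wild type. It was higher than in untreated wild type by 0.52 in hsp-otd and by 0.39 in hsp-Otx2 (log2, SE 0.07, adjusted p = 2.08e-05 and 0.000164). Over heat-shocked wild type it was higher in hsp-otd (0.32, adjusted p = 0.006) and not called in hsp-Otx2 (0.19).

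mRpS35 alone was higher in heat-shocked than in untreated wild type. It read 1487, 2034, 1490 and 1521 in hsp-otd, 1310, 1406, 1374 and 1646 in hsp-Otx2, 2482, 2654 and 2212 in heat-shocked wild type and 1850, 1851, 2152, 1870 and 1826 in untreated wild type. The heat-shocked wild-type arrays lay above all others, with a log2 fold change of 0.36 over untreated wild type (SE 0.11, adjusted p = 0.0277). This call was lost without replicate 1 or replicate 2 of heat-shocked or replicate 5 of untreated wild type. It was also lost with median scaling (0.25 relative to all probe sets) and with array weights (adjusted p = 0.0794). In hsp-Otx2 mRpS35 was lower than in untreated wild type by 0.42 (log2, adjusted p = 0.00326).

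Among the 61 members, the widest range of fold changes was that of mRpL4, a large-subunit member near the floor. mRpL4, the homologue of a bacterial protein that lines the peptide tunnel, read -504, -13, -4 and 87 in hsp-otd, 243, 157, 197 and 337 in hsp-Otx2, -241, -88 and -28 in heat-shocked wild type and 115, 225, 104, 328 and 365 in untreated wild type. All heat-shocked wild-type arrays and 3 of 4 hsp-otd arrays were at the floor, whereas every hsp-Otx2 and untreated array was above it. The size of any difference from heat-shocked wild type is therefore set by the floor and is not a lower bound. With a floor of 20, mRpL4 was 10.0-fold lower in heat-shocked than in untreated wild type (log2 fold change -3.32, adjusted p = 0.000375). It was 11.2-fold higher in hsp-Otx2 than in heat-shocked wild type (log2 fold change 3.49, adjusted p = 0.0002). With a floor of 50 these log2 fold changes were -2.0 and 2.17 (adjusted p = 0.00187 and 0.000778).

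With 3 of 4 hsp-otd arrays at the floor, the size of the mRpL4 difference in hsp-otd is also set by the floor. The log2 fold change of hsp-otd was -2.96 over hsp-Otx2 (adjusted p = 0.000468) and -2.79 over untreated wild type with a floor of 20, and -1.97 and -1.80 with a floor of 50, called in each case.

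mRpL20, the homologue of bacterial L20, read 85, 150, 440 and 313 in hsp-otd, 488, 300, 284 and 328 in hsp-Otx2, 284, 188 and 295 in heat-shocked wild type and 16, 177, -8, 172 and 212 in untreated wild type. All hsp-Otx2 arrays lay above all untreated arrays, of which replicates 1 and 3 were at the floor. The log2 fold change of hsp-Otx2 over untreated wild type was 2.16 (SE 0.71, adjusted p = 0.0221), a call lost without either of those replicates or without replicate 1 of hsp-Otx2, and lost when only these 2 groups entered the fit (adjusted p = 0.0669). The other comparisons of mRpL20 were not called.

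mRpL54, a large-subunit protein particular to mitochondria and also of low intensity, read 281, 57, 302 and 191 in hsp-otd, 246, 371, 172 and 252 in hsp-Otx2, 396, 352 and 213 in heat-shocked wild type and 452, 484, 248, 478 and 450 in untreated wild type. The groups overlapped, and only hsp-otd over untreated wild type was called (-1.24, SE 0.42, adjusted p = 0.0347). That call was lost with array weights (adjusted p = 0.0518), with no filter (adjusted p = 0.0577) and with only these 2 groups in the fit (adjusted p = 0.0893).

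Against heat-shocked wild type, which had the same heat pulse, 5 members were higher and 14 lower in hsp-otd embryos, beside 15.8% higher and 13.6% lower of all probe sets tested. The large subunit had 1 higher and 5 lower of 41 (median -0.17), a share lower no larger than that of all probe sets, and the small subunit had 4 higher and 9 lower of 20 (median -0.20); the median of all probe sets was 0.00. This split rested on the normalization: it was 7 higher and 5 lower with median scaling and 16 higher and 0 lower without normalization, where the median of all probe sets was 0.68. Without replicate 1 or replicate 3 of hsp-otd the number lower was 8, without replicate 3 of heat-shocked wild type it was 9, and the number higher was 2 without replicate 4 of hsp-otd and 3 without its replicate 1, 2 or 3 or without replicate 2 of heat-shocked wild type.

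In hsp-Otx2 embryos 5 members were higher and 21 lower than in heat-shocked wild type, beside 17.5% higher and 19.7% lower of all probe sets. The large subunit had 1 higher and 14 lower (median -0.24) and the small subunit 4 higher and 7 lower (median -0.19), where all probe sets had a median of -0.13. With median scaling 8 were higher and 12 lower, and without normalization 5 and 0. Relative to all probe sets, the large-subunit median was -0.17 in hsp-otd and -0.11 in hsp-Otx2 after quantile normalization, -0.06 and -0.02 with median scaling, and -0.02 and 0.05 without normalization, and the small-subunit median was -0.20 and -0.07, then -0.07 and 0.04, then 0.00 and 0.11. The direction of the family in hsp-Otx2 against heat-shocked wild type thus turned with the scaling. Both comparisons share the 3 heat-shocked wild-type arrays.

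Stage and cell type markers also differed from heat-shocked wild type. In hsp-otd 13 of 14 proliferation markers were higher and 0 lower, 8 of 11 late cuticle markers higher and 1 lower, 0 of 8 muscle markers higher and 5 lower, and 4 of 10 germ line and maternal markers higher and 2 lower. In hsp-Otx2 the counts higher and lower were 6 and 2 for proliferation, 6 and 2 for cuticle, 0 and 0 for muscle and 6 and 0 for germ line and maternal markers. Of 5 neuronal markers 1 was higher in hsp-otd and 0 in hsp-Otx2, with 0 lower. Of all probe sets tested 15.8% were higher and 13.6% lower in hsp-otd, and 17.5% and 19.7% in hsp-Otx2. The part of these marker shifts in the members' values was not tested.

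Single members stood further out than the family. Over heat-shocked wild type, mRpS31 gave a log2 fold change of -0.96 in hsp-otd (SE 0.11, adjusted p = 1.45e-05) and -0.60 in hsp-Otx2 (SE 0.11, adjusted p = 0.00056). mRpS16 gave -0.52 in hsp-otd (SE 0.09, adjusted p = 0.000483) and -0.90 in hsp-Otx2 (SE 0.09, adjusted p = 1.04e-06). mRpS35 gave -0.59 in hsp-otd (adjusted p = 0.00125) and -0.77 in hsp-Otx2 (adjusted p = 6.7e-05). All 3 had arrays that did not overlap between either line and heat-shocked wild type.

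In the large subunit mRpL55, particular to mitochondria, read 1415, 1484, 1523 and 1441 in hsp-otd, 1218, 1157, 1166 and 1062 in hsp-Otx2, 2591, 1627 and 2099 in heat-shocked wild type and 1934, 2018, 1678, 1723 and 1604 in untreated wild type. Both lines lay below both wild-type groups. Over heat-shocked wild type its log2 fold change was -0.50 in hsp-otd (SE 0.12, adjusted p = 0.00719) and -0.85 in hsp-Otx2 (SE 0.12, adjusted p = 5.64e-05). The hsp-otd call was lost with median scaling, as were those of mRpL17, mRpL30, mRpL50 and mRpL52, so none of the 5 large-subunit members lower in hsp-otd than in heat-shocked wild type kept its call there. mRpL50, particular to mitochondria, read 1345, 1521, 1436 and 1511 in hsp-otd against 2210, 1598 and 1999 in heat-shocked wild type, without overlap (log2 fold change -0.40, adjusted p = 0.0277). In the small subunit mRpS28, particular to mitochondria, read 745, 692, 712 and 851 in hsp-Otx2 against 1124, 856 and 992 in heat-shocked wild type (-0.40, adjusted p = 0.016). These did not overlap either, though the nearest arrays read 851 and 856. The mRpS28 call was lost with median scaling (adjusted p = 0.175) and with array weights (adjusted p = 0.0583).

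mRpS7, a primary binding protein of the small-subunit head in bacteria, read 3519, 3388, 3466 and 3475 in hsp-otd, 3988, 4288, 4031 and 4480 in hsp-Otx2, 3864, 5046 and 4789 in heat-shocked wild type and 3839, 3594, 4728, 4560 and 3786 in untreated wild type. The hsp-otd arrays lay below all others. Over heat-shocked wild type it gave -0.39 in hsp-otd (SE 0.10, adjusted p = 0.00977) and -0.11, not called, in hsp-Otx2.

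Many members passed in opposite directions in different comparisons, among them mRpL2, mRpL17, mRpL52, mRpS2 and mRpS16 above. The share of all probe sets that did so was not counted. Further examples follow. mRpS11, a homologue of a platform protein of the bacterial small subunit, read 661, 618, 630 and 686 in hsp-otd, 857, 757, 784 and 811 in hsp-Otx2, 567, 450 and 676 in heat-shocked wild type and 825, 899, 820, 748 and 863 in untreated wild type. It was lower in heat-shocked than in untreated wild type by 0.58 (log2, adjusted p = 0.00222) and higher in hsp-Otx2 than in heat-shocked wild type by 0.53 (adjusted p = 0.00341). The hsp-Otx2 arrays overlapped the untreated arrays, and that difference was -0.05, not called.

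mRpS22, particular to mitochondria, had the same pattern: -0.62 in heat-shocked over untreated wild type (adjusted p = 0.00474) and 0.52 in hsp-Otx2 over heat-shocked wild type (adjusted p = 0.0119), a difference that was not called with replicate 3 of heat-shocked wild type left out or with only these 2 groups in the fit (adjusted p = 0.0678). mRpL15 was lower in heat-shocked than in untreated wild type by 0.61 (adjusted p = 0.0105) and higher in hsp-otd than in heat-shocked wild type by 0.54 (adjusted p = 0.0224), and neither passed with replicate 3 of heat-shocked wild type left out, the array that read 594 beside 762 and 867. The second was also lost without replicate 2 or replicate 4 of hsp-otd. mRpS18C, a paralog of mRpS18B, gave -0.46 in heat-shocked over untreated wild type and 0.38 in hsp-otd over heat-shocked wild type. mRpS18B gave 0.71 in hsp-otd over heat-shocked wild type (adjusted p = 0.0342). The paired differences of mRpS11, mRpS22, mRpL15 and mRpS18C share the heat-shocked wild-type arrays. With only heat-shocked and untreated wild type in the fit, 6 calls between them ended, those of mRpS22, mRpS6, mRpL15, mRpL42, mRpS18C and mRpL44 (adjusted p 0.0735 to 0.127).

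**Figure D4:**
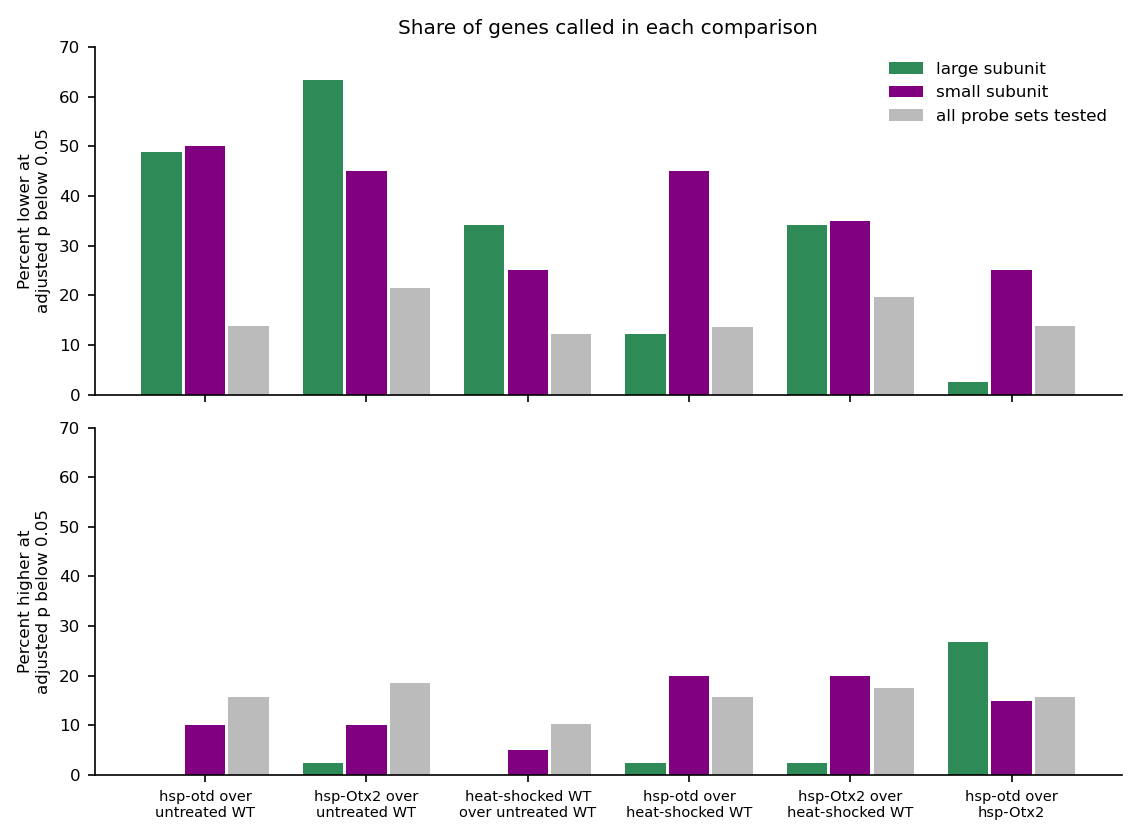
Bars give the percent of members lower (upper panel) and higher (lower panel) at an adjusted p below 0.05 in each of the 6 comparisons, beside the percent of all probe sets tested. In the 3 comparisons against untreated wild type the shares lower were 48.8%, 63.4% and 34.1% for the large subunit, where all probe sets had 13.9%, 21.4% and 12.2%. In the small subunit 10, 9 and 5 of 20 were lower in those comparisons.

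The lines were also compared directly with each other; the wild-type arrays enter the normalization and the estimate of spread. In hsp-otd 14 members were higher and 6 lower than in hsp-Otx2, beside 15.7% higher and 13.8% lower of all probe sets tested. By subunit, of the large subunit 11 of 41 were higher in hsp-otd and 1 lower (median log2 fold change 0.22), and of the small subunit 3 of 20 were higher and 5 lower (median 0.01), where all probe sets had a median of 0.02. Relative to all probe sets the large-subunit median was 0.20 after quantile normalization, 0.22 with median scaling and 0.25 without normalization, and the small-subunit median was -0.02, -0.01 and 0.03. No test of the difference between the subunits was made. With only the arrays of the lines in the fit, 21 members were higher and 9 lower in hsp-otd.

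Among large-subunit members higher in hsp-otd were mRpL2 (0.54, adjusted p = 0.0218), mRpL49 (0.45, adjusted p = 0.00411), mRpL23 (0.41, adjusted p = 0.00576), mRpL17 (0.38, adjusted p = 0.000572) and mRpL13 (0.33, adjusted p = 0.00127), with log2 fold changes of hsp-otd over hsp-Otx2. mRpL23, whose bacterial counterpart borders the tunnel exit, read 1667, 1683, 1700 and 1680 in hsp-otd and 1326, 1274, 1202 and 1275 in hsp-Otx2, beside 1569 to 1867 in heat-shocked and 1552 to 2255 in untreated wild type. mRpL13 read 1706, 1644, 1742 and 1717 in hsp-otd and 1405, 1318, 1376 and 1331 in hsp-Otx2, beside 1783 to 1999 in heat-shocked and 2038 to 2392 in untreated wild type. For both, the hsp-otd arrays lay above the hsp-Otx2 arrays with no overlap.

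mRpL24, the homologue of bacterial L24, read 1114, 1201, 1185 and 1185 in hsp-otd and 1075, 863, 895 and 1109 in hsp-Otx2, against 1276 to 1502 in untreated wild type. It was higher in hsp-otd than in hsp-Otx2 (0.26, adjusted p = 0.0465) and lower in hsp-Otx2 than in untreated wild type (-0.46, adjusted p = 0.000494).

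mRpL49 read 633, 683, 631 and 619 in hsp-otd and 454, 499, 475 and 451 in hsp-Otx2. mRpL16, whose bacterial counterpart helps place transfer RNA, was 0.24 higher in hsp-otd (log2, adjusted p = 0.0196). The calls of mRpL14 (0.47), mRpL35 (0.42) and mRpL2 were lost with a single array left out. For mRpL14 this was any hsp-otd array or replicate 2, 3 or 4 of hsp-Otx2. For mRpL35 it was any hsp-otd array or replicate 1, 2 or 3 of hsp-Otx2, and for mRpL2 replicate 1 or 4 of hsp-otd or 3 or 4 of hsp-Otx2. Those of mRpL23 and mRpL49 were kept without any 1 array. The calls of mRpL13, mRpL16, mRpL17 and mRpL24 between the lines were not followed singly with arrays left out.

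In the small subunit mRpS2 (0.52, adjusted p = 0.000159), mRpS16 (0.38, adjusted p = 0.00207) and mRpS25 (0.30, adjusted p = 0.041) were higher in hsp-otd than in hsp-Otx2. Lower in hsp-otd were mRpS30 (-0.50, adjusted p = 0.000559), mRpS10 (-0.37, adjusted p = 0.0027), mRpS31 (-0.36, adjusted p = 0.0133), mRpS7 (-0.28, adjusted p = 0.0373) and mRpS6 (-0.25, adjusted p = 0.0327). mRpS30, counted here by its symbol, is a protein of the large subunit in mammalian structures.

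mRpS30 read 1100, 1247, 1180 and 1189 in hsp-otd, 1566, 1655, 1680 and 1747 in hsp-Otx2, 1677, 1355 and 1362 in heat-shocked wild type and 1339, 1504, 1293, 1646 and 1554 in untreated wild type. The hsp-otd arrays lay below all others, and hsp-Otx2 overlapped both wild-type groups. mRpS10 read 1578, 1565, 1623 and 1561 in hsp-otd, 2113, 2262, 2140 and 1706 in hsp-Otx2, 1602, 1658 and 1452 in heat-shocked wild type and 1777, 1818, 1799, 2020 and 1874 in untreated wild type. Its hsp-Otx2 arrays were above the heat-shocked wild-type arrays (0.38, adjusted p = 0.00334).

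**Figure D5:**
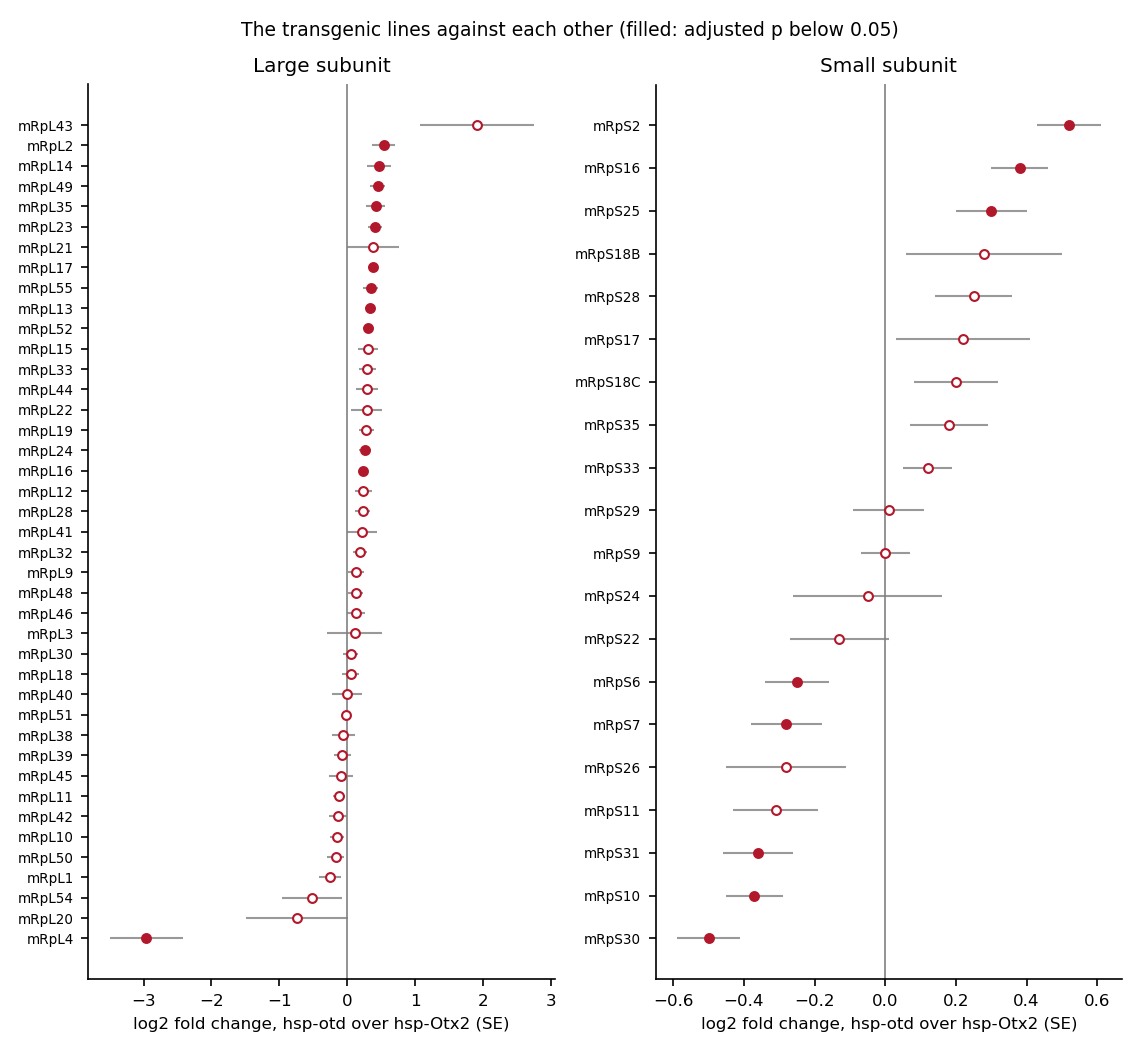
Points are the log2 fold change of each member in hsp-otd over hsp-Otx2, with bars of 1 SE, for the large subunit at left and the small subunit at right on separate scales; filled points passed at an adjusted p below 0.05. The filled large-subunit points lie right of 0 except mRpL4, and the filled small-subunit points lie on both sides.

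The number of members higher in hsp-otd than in hsp-Otx2 was 7 without replicate 4 of hsp-otd or replicate 3 of hsp-Otx2, 9 without replicate 1 or 2 of hsp-otd or replicate 2 of hsp-Otx2, and 1, with 1 lower, without normalization, against a median of all probe sets of 0.26 there. The call of mRpS25 was lost without replicate 1, 2 or 4 of hsp-otd or replicate 2, 3 or 4 of hsp-Otx2, that of mRpS6 without replicate 1, 2 or 3 of hsp-otd or any hsp-Otx2 array, and that of mRpS7 without any hsp-otd array or replicate 2, 3 or 4 of hsp-Otx2. With median scaling mRpS25 and mRpS7 were not called.

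The members were also read by descent. Of the large subunit 25 members have bacterial counterparts and 16 are particular to mitochondria; of the small subunit the numbers are 11 and 9. Against untreated wild type the bacterial class of the large subunit had 11 lower in hsp-otd, 17 in hsp-Otx2 and 8 in heat-shocked wild type, with medians of -0.22, -0.46 and -0.23. The class particular to mitochondria had 9, 9 and 6 lower, with medians of -0.42, -0.65 and -0.22. As shares these were 44.0%, 68.0% and 32.0% of the bacterial class and 56.2%, 56.2% and 37.5% of the other. Of all probe sets tested 13.9%, 21.4% and 12.2% were lower. In the small subunit the bacterial class had 5, 3 and 4 lower (medians -0.23, -0.05 and -0.30) and the other class 5, 6 and 1 lower (medians -0.27, -0.42 and -0.09). As shares these were 45.5%, 27.3% and 36.4%, and 55.6%, 66.7% and 11.1%, the last below the share of all probe sets. Between the lines the bacterial class of the large subunit had 8 of 25 higher in hsp-otd and 1 lower, and the other class 3 of 16 higher and 0 lower. The shares higher were 32.0% and 18.8%, beside 15.7% higher and 13.8% lower of all probe sets. These are counts and shares, and no difference between classes was tested.

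In none of the 6 comparisons were 14 members called, 12 of the large and 2 of the small subunit (smallest adjusted p = 0.0567). The share of all probe sets called in none was not counted, so whether 14 is few or many cannot be told. Among these members mRpL43 read 13 and 124 on 2 hsp-Otx2 arrays and 508 and 554 on the others. It had log2 fold changes from -1.55 to 1.91, and the other 13 members, all above the floor throughout, from -0.85 to 0.74. After group means were removed, pairs of members had a median correlation over the 16 arrays of 0.03 within the large subunit (820 pairs), 0.02 within the small subunit (190 pairs) and 0.03 between them, beside 0.00 for pairs of all probe sets tested. Correlations over 0.5 were held by 9.88%, 10.0% and 9.39% of these pairs, beside 6.58% of pairs of all probe sets. All pairs share the same arrays and their normalization.

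The genes tko and bonsai encode small-subunit proteins under other names. tko, the gene for the homologue of bacterial S12 in the decoding site, known in flies for bang sensitivity when mutated, read 81, -54, 29 and 1465 in hsp-otd, 37, 177, 164 and 167 in hsp-Otx2, 520, 437 and 663 in heat-shocked wild type and 1820, 1300, 1019, 1758 and 1791 in untreated wild type. Replicate 4 of hsp-otd lay within the untreated range, and the other arrays of the lines lay below all wild-type arrays. Its log2 fold change over untreated wild type was -4.03 in hsp-otd (SE 0.89, adjusted p = 0.00262), -3.70 in hsp-Otx2 (SE 0.89, adjusted p = 0.00307) and -1.50, not called, in heat-shocked wild type. Without replicate 4 of hsp-otd the tko values were -5.35, -3.69 and -1.49, and the last then passed (adjusted p = 0.0483). It also passed with only heat-shocked and untreated wild type in the fit (adjusted p = 0.00526), and the arrays of these groups did not overlap.

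bonsai, the homologue of S15, read 849, 1101, 826 and 1104 in hsp-otd, 1019, 929, 1004 and 1129 in hsp-Otx2, 1653, 1601 and 1569 in heat-shocked wild type and 1351, 1348, 1282, 1431 and 1339 in untreated wild type. All arrays of the lines lay below all wild-type arrays. It was lower in each line than in either wild-type group (-0.41 to -0.74, largest adjusted p = 0.00249), though with median scaling hsp-Otx2 over untreated wild type was not called (-0.23), and without normalization none of these 4 calls held. Of the 4 probe sets that lead to 2 symbols, 3 were tested. Against untreated wild type 2 of these were lower in hsp-otd, 2 in hsp-Otx2 and 1 in heat-shocked wild type. Of all probe sets tested 13.9%, 21.4% and 12.2% were lower. None of the 3 was called in the other comparisons.

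The products of mitochondrial translation enter the respiratory chain and ATP synthase, whose nuclear-encoded subunits were counted in the same way. Of 68 such genes, 31 were lower and 1 higher in hsp-otd than in untreated wild type (median -0.23), 42 lower and 1 higher in hsp-Otx2 (median -0.38), and 17 lower and 0 higher in heat-shocked wild type (median -0.16). The shares lower were 45.6%, 61.8% and 25.0%, beside 13.9%, 21.4% and 12.2% of all probe sets tested. Between the lines 18 of the 68 were higher in hsp-otd and 5 lower (median 0.12). The shares were 26.5% and 7.35%, beside 15.7% and 13.8% of all probe sets. ND-ACP, the acyl carrier of complex I, averaged 4795.2 in hsp-otd and 2687.5 in hsp-Otx2 (0.84, adjusted p = 3.45e-07).

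Of 84 cytosolic ribosomal proteins, the counterpart outside mitochondria, 9 were higher and 9 lower in hsp-otd than in untreated wild type, 1 higher and 2 lower in hsp-Otx2, and 1 higher and 1 lower in heat-shocked wild type, with medians of -0.10, 0.03 and 0.11. The shares were 10.7%, 1.19% and 1.19% higher and 10.7%, 2.38% and 1.19% lower. Of all probe sets tested 15.7%, 18.5% and 10.3% were higher and 13.9%, 21.4% and 12.2% lower. Over heat-shocked wild type the cytosolic ribosomal proteins had 7 higher and 31 lower in hsp-otd and 3 higher and 1 lower in hsp-Otx2. In hsp-otd these were 8.33% and 36.9%, beside 15.8% and 13.6% of all probe sets. In hsp-Otx2 they were 3.57% and 1.19%, beside 17.5% and 19.7%.

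Of 14 mitochondrial tRNA synthetases, which charge tRNAs for the mitochondrial ribosome, 2 were lower in hsp-otd, 3 lower and 2 higher in hsp-Otx2 and 2 lower in heat-shocked wild type than in untreated wild type. These are 14.3%, 21.4% and 14.3% lower, near the 13.9%, 21.4% and 12.2% of all probe sets tested. PheRS-m, which charges the phenylalanine tRNA, gave -1.03, -1.48 and -0.69 in that order (SE 0.10, largest adjusted p = 0.000139). Of 7 translation factors 1, 3 and 1 were lower (14.3%, 42.9% and 14.3%) and 0 higher. mEFTu1, an elongation factor that brings tRNA to the ribosome, averaged 1810.5 in hsp-Otx2 and 2633.9 in untreated wild type (-0.54, adjusted p = 0.000757). Of 16 genes of mitochondrial DNA and RNA maintenance 4, 4 and 3 were lower (25.0%, 25.0% and 18.8%) and 0 higher. TFAM, which packages mitochondrial DNA, gave -0.48 in hsp-otd (adjusted p = 0.0144).

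Of 7 regulators of mitochondrial gene expression 3 were higher and 1 lower in hsp-otd than in untreated wild type, 2 higher and 2 lower in hsp-Otx2, and 1 higher and 1 lower in heat-shocked wild type. Of all probe sets tested 15.7%, 18.5% and 10.3% were higher and 13.9%, 21.4% and 12.2% lower. CycD, a cyclin that promotes cell growth, had a log2 fold change of 1.00 in hsp-otd, 2.01 in hsp-Otx2 and 0.53 in heat-shocked wild type (largest adjusted p = 0.00543). Its partner kinase Cdk4 was lower in hsp-otd (-0.54, adjusted p = 0.000751) and ewg, a transcription factor, was higher there (1.02, adjusted p = 0.00175). In hsp-Otx2 crc, the fly homologue of ATF4, was lower (-0.52, adjusted p = 0.000202) and Dref, which binds the DNA replication-related element, was higher (0.45, adjusted p = 0.00557).

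Of 14 proliferation markers 7 were higher and 0 lower in hsp-otd than in untreated wild type, 3 higher and 7 lower in hsp-Otx2, and 0 higher and 7 lower in heat-shocked wild type, with sums of 28146 to 29209, 30919 to 37350 and 15279 to 16395 in these groups and 19749 to 21787 in untreated wild type. Between the lines 8 were higher in hsp-otd and 3 lower. Of 8 muscle markers 6 were lower in hsp-otd than in hsp-Otx2 and 0 higher, with sums of 47015 to 49568 in hsp-otd, 52654 to 57369 in hsp-Otx2, 49142 to 55215 in heat-shocked and 54456 to 56308 in untreated wild type. Over untreated wild type 5 muscle markers were lower and 0 higher in hsp-otd, and 1 was higher and 1 lower in hsp-Otx2 and in heat-shocked wild type. The 10 germ line and maternal genes, of which osk was above the floor in hsp-Otx2 alone, had 4 higher and 1 lower in hsp-otd, 8 and 0 in hsp-Otx2 and 1 and 1 in heat-shocked wild type. They summed to 7668 to 8534 in hsp-otd, 9033 to 12256 in hsp-Otx2, 8290 to 10100 in heat-shocked and 5791 to 8130 in untreated wild type, and the 5 neuronal genes (2 higher and 0 lower, 1 and 1, 1 and 0) to 3086 to 3407, 2427 to 2752, 1999 to 2979 and 2094 to 3625. Over untreated wild type 15.7%, 18.5% and 10.3% of all probe sets were higher in the same order of groups, and 13.9%, 21.4% and 12.2% lower. Between the lines 15.7% were higher in hsp-otd and 13.8% lower. The part of these cell type markers in the members' values was not tested.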

How the data were processed

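The files hold deposited intensities on a linear scale, 1 per probe set of a single-colour oligonucleotide array, and some are below 0. The sources used here do not give how the authors scaled them. Of 14070 probe sets, 32 controls were left out; probe set names gave 1 current symbol for 13077, several for 467 and none for 494. Titles supplied the groups and the replicate numbers. Values of the 16 arrays were brought to 1 distribution by quantile normalization, those under 20 were set to 20, and log2 was taken; 12301 probe sets above the floor on 3 or more arrays were tested (1737 were not) with limma 3.58.1 in R 4.3.3: 1 coefficient per group, eBayes with a trend, and Benjamini-Hochberg adjustment over all of them. Levels are geometric means of floored intensities, and SE is that of the log2 fold change from the moderated fit. The fit was tested on simulated data.

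Alternatives were median scaling, no normalization, a floor of 50, no filter, the compared groups only, array weights, the replicate number as a block, the mean of a gene's probe sets, and each array left out. The members and all gene lists were chosen with earlier results of these data known. Named with values were, per comparison and subunit, up to 5 called members with the highest and 5 with the lowest fold change, those called in opposite directions or at the floor throughout a group, and up to 3 genes of each other list by adjusted p, 37 members in all. The labels name no batch. No pair of arrays was identical.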

Additional observations from a re-analysis of the deposited data

Results flagged for a closer look

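Among the 37 named members, 111 groups of 4 or 5 arrays were examined for 1 array far from the rest, and 12 (10.8%) held one. The rule's nominal level is about 1 in 20 for independent values. The members share the same arrays, and the rate over all probe sets was not counted, so no excess is claimed. Values are normalized intensities. In hsp-otd, mRpL30 was low on replicate 1 (889, others 1040 to 1045), mRpS22 was low on replicate 4 (834, others 926 to 937), mRpS28 was high on replicate 2 (1050, others 825 to 854), and mRpS35 was high on replicate 2 (2034, others 1487 to 1521). mRpL4 was above the floor on replicate 4 of hsp-otd alone (87, others -504 to -4), and since those others are all set to the floor, its standing apart follows from the floor. In hsp-Otx2, mRpL46 was low on replicate 1 (510, others 582 to 597).

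In untreated wild type, replicate 3 was low for mRpL44 (1029, others 1239 to 1278), mRpL54 (248, others 450 to 484) and mRpS22 (861, others 1096 to 1133) and high for mRpS35 (2152, others 1826 to 1870). Replicate 2 was high for mRpL16 (1717, others 1470 to 1532) and low for mRpL23 (1552, others 2060 to 2255). No cause was tested.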

How the results depend on the processing

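Of 80 calls of named members, none changed direction relative to the median of all probe sets under any alternative; 9 lost their call with median scaling, 53 without normalization, 0 with a floor of 50, 2 with no filter, 10 with the compared groups only, 5 with array weights, 10 with the replicate block and 2 with the mean of probe sets. Without normalization 15 had the opposite sign before that median was subtracted. Counts of members higher and lower without normalization were 0 and 9 in heat-shocked over untreated wild type, 16 and 0 in hsp-otd and 5 and 0 in hsp-Otx2 over heat-shocked wild type, 1 and 1 between the lines, and 2 and 1 in hsp-otd and 0 and 7 in hsp-Otx2 over untreated wild type. With median scaling they were 0 and 24, 7 and 5, 8 and 12, 12 and 6, 2 and 21, and 6 and 27 in the same order. In heat-shocked over untreated wild type 7 were lower with the compared groups only, 0 were higher with array weights, and 2 were higher with no filter and with the mean of probe sets. Between the lines 23 were higher with array weights.

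With 1 array left out, counts higher ran from 0 to 2 and lower from 11 to 22 in heat-shocked over untreated wild type, from 2 to 7 and 8 to 14 in hsp-otd and from 4 to 7 and 19 to 24 in hsp-Otx2 over heat-shocked wild type, from 7 to 16 and 4 to 7 between the lines, and from 2 to 2 and 22 to 32 in hsp-otd and 2 to 4 and 32 to 36 in hsp-Otx2 over untreated wild type. Of the 80 calls 58 kept their side of the threshold without any 1 array. Besides those given with their values, calls of hsp-otd over heat-shocked wild type were lost for mRpL30 (any hsp-otd array, replicate 2 of hsp-Otx2 or 3 of heat-shocked wild type), mRpL52 (any hsp-otd array, 1 or 3 of heat-shocked wild type), mRpL50 (1 or 3 of either group), mRpS18B (1, 3 or 4 of hsp-otd, 1 or 2 of heat-shocked wild type) and mRpS18C (any hsp-otd array, 2 or 3 of heat-shocked wild type). So were those of mRpS28 in hsp-Otx2 over heat-shocked wild type (replicate 1 of heat-shocked wild type), mRpS18C in heat-shocked over untreated wild type (replicate 2 of heat-shocked) and mRpL54 in hsp-otd over untreated wild type (2 or 4 of hsp-otd, 1, 2, 4 or 5 of untreated).

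Arrays with the same replicate number correlated weakly: of 21 same-numbered pairs 2 correlated over 0.1 (range -0.071 to 0.115). Pairs with different numbers reached 0.117 at the top and -0.142 at the bottom. Of 16 arrays 6 correlated best with their own number. Whether the numbers mark pairs was not tested. With the replicate number as a block, 0 members were higher and 13 lower in heat-shocked over untreated wild type, 2 and 12 in hsp-otd and 5 and 20 in hsp-Otx2 over heat-shocked wild type, 12 and 5 between the lines, and 2 and 23 in hsp-otd and 3 and 35 in hsp-Otx2 over untreated wild type. The 10 calls that did not pass with it (adjusted p 0.0551 to 0.0824) were those of hsp-otd over heat-shocked wild type for mRpL15, mRpL52, mRpS18B and mRpS18C, heat-shocked over untreated wild type for mRpS6, mRpS18C and mRpS35, the lines for mRpS25 and mRpS6, and hsp-otd over untreated wild type for mRpL54. The cause of these changes was not tested. The number of arrays limits what could be called, and so does signal near the floor for mRpL4, mRpL20 and mRpL43.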
